A study of Mus musculus with 6 samples.

Results

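Type IV collagen, the nidogens and the large basement membrane proteoglycans were followed in basal cells of the mouse prostate. The set holds 10 genes, taken by name as the network genes of the basement membrane other than the laminins: Col4a1 to Col4a6, Nid1, Nid2, Hspg2 and Agrn. All 10 were among the 25273 genes that could be named in the data, and all 10 were among the 10255 genes tested. RNA sequencing compared sorted basal cells of the proximal ducts, those nearest the urethra, with basal cells of the distal ducts, toward the gland tips. Each region had 3 libraries of total RNA, numbered 1 to 3, from C57BL/6 mice aged 8 to 12 weeks, with no treatment or altered gene named for either region. The labels give neither the antibodies and gates that define a basal cell nor what the replicate numbers stand for, and the growth protocol describes a culture of stromal cells without saying whether basal cells were cultured. They do not say that the libraries of a region came from separate animals, so p-values describe only how these libraries vary, and that variation may be technical.

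Basement membranes are thin sheets of matrix on which epithelial and endothelial cells rest. Laminins form one network in them and type IV collagen another, built from triple-helical chains, and nidogens and perlecan link the networks. The α1 and α2 chains, encoded by Col4a1 and Col4a2, are found in nearly all basement membranes and are made by endothelial, stromal and epithelial cells, whereas the chains of the other genes have narrower distributions. Each pair of neighbouring collagen IV genes is transcribed in opposite directions from a shared region.

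The basal label was checked against keratins and Trp63, which define basal cells. Krt14 lay between 2121 and 3397 FPKM in the 6 libraries (fragments per kilobase of transcript, scaled to library size), Krt5 between 340 and 674 FPKM and Trp63 between 27.8 and 74.7 FPKM. Luminal keratins were also abundant, Krt8 at 474 to 661 FPKM and Krt18 at 1076 to 1628 FPKM. The depth derived from the deposited intervals was 21600000 to 27700000 fragments per library, and the Pearson correlation across genes was 0.968 to 0.987 within a region and 0.95 to 0.97 between regions. Genes are not independent replicates. The libraries numbered 1 stood apart: each held the highest endothelial marker sum and the lowest Hspg2 value of its region. Values without both are given for the members whose call they change, and also for Col4a1 and Hspg2. Hspg2 is itself one of the values that set these libraries apart. Fits without them are therefore no separate support for Hspg2 or for other members low in them.

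The upstream sequences of 1 facing pair are shown because, in the values that follow, Col4a6 was called higher in proximal libraries and Col4a5 was not. The ratio of these genes did not overlap between regions (exact permutation test, adjusted p = 0.167). With 3 libraries against 3 this test cannot give a p under 0.1. No ratio could pass it, so it does not decide whether the ratio differs. The ratio of Col4a3 to Col4a4 gave the same adjusted p. Any link between these sequences and the levels was not tested. In GRCm38 the annotated starts of Col4a6 and Col4a5 on chromosome X lie 1308 bases apart, at 141474076 and 141475385, facing away from each other. Part of the upstream window of each gene follows, from RefSeq on GRCm38.p6, 5′ to 3′ on the strand of its gene, at chrX:141474096-141474326 (minus strand) and chrX:141475169-141475369 (plus strand). Capitals mark the only match to the motifs searched within these stretches.

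Col4a6: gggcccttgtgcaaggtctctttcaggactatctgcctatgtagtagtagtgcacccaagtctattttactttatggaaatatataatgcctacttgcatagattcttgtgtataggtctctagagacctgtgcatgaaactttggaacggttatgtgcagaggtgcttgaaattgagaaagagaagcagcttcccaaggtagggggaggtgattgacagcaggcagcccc

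Col4a5: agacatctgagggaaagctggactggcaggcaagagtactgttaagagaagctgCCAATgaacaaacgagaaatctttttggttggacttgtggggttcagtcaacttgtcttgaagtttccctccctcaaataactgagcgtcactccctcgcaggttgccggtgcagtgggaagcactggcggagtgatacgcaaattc

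The motifs searched on both strands were the GC box (GGGCGG), the CCAAT box (CCAAT) and the TATA box (TATAAA). The 231 bases of Col4a6 held none of them, and the 201 bases of Col4a5 held 1 CCAAT box. The full windows of 300 bases each held 1 GC box that is not within the printed stretch, and 35.7% of all full windows hold one. In the same part of the 32851 promoter windows of the table, the CCAAT box occurred in 32.3% for Col4a6 and in 28.6% for Col4a5, the GC box in 30% and 24.8%, and the TATA box in 11.8% and 9.18%. G and C made up 45.5% of the Col4a6 stretch and 49.8% of the Col4a5 stretch, against medians of 51.9% and 51.7%. The other pairs lie closer together: the starts of Col4a1 and Col4a2 on chromosome 8 overlap by 22 bases, and those of Col4a4 and Col4a3 on chromosome 1 lie 71 bases apart. Of the 10 genes, 8 had a window in the RefSeq table.

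Across the 10 genes, 4 were higher in proximal basal cells and 0 were lower (limma on log2(FPKM + 1), adjusted p under 0.05 over all tested genes). On leaving out each library in turn, 1 to 5 members were higher. In the comparison of all libraries the 4 were Col4a1, Col4a2, Col4a6 and Nid2. The corresponding shares of all tested genes were 4.52% higher and 2.50% lower. Every proximal library lay above every distal library for 7 of the 10 genes, against 15.8% of all tested genes, and for 0 of the 10 was the reverse true, against 13.0% of all tested genes. The median log2 fold change was 0.46 over the 10 genes and -0.01 over all tested genes. In bulk RNA, more cells of a type and more RNA per cell cannot be told apart.

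**Figure D1:**
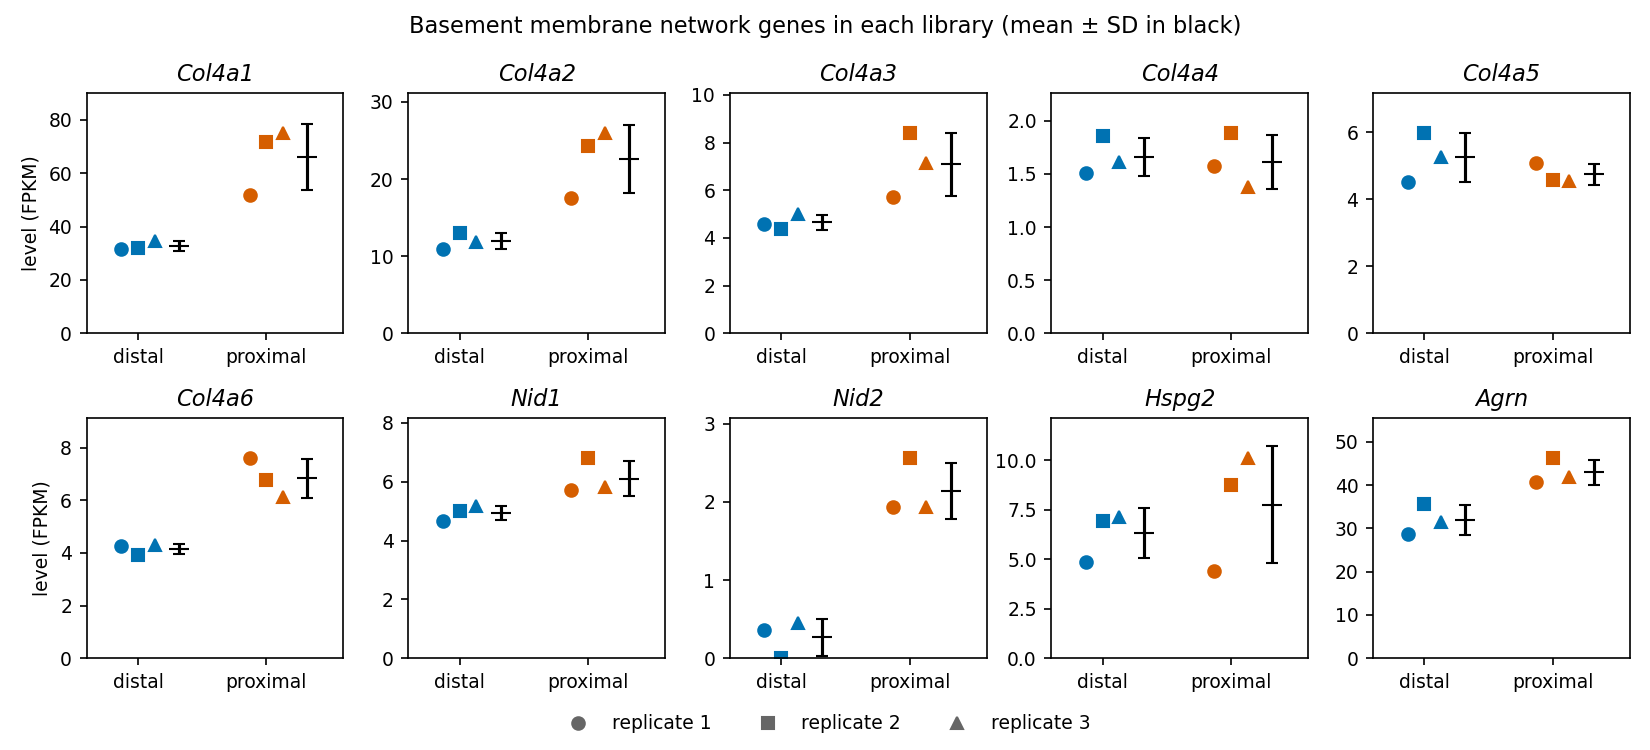
Level of each of the 10 genes in FPKM (vertical axis, from 0, own scale per gene) in the 3 distal (blue) and 3 proximal (orange) libraries, with the mean ± SD in black. Proximal and distal points do not overlap for Col4a1, Col4a2, Col4a3, Col4a6, Nid1, Nid2 and Agrn, and overlap for Col4a4, Col4a5 and Hspg2.

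Col4a1, which encodes the α1 chain of the common collagen IV network, was the most abundant gene of the set. It lay at 31.6, 31.8 and 34.7 FPKM in distal libraries 1 to 3 and at 51.9, 71.5 and 74.8 FPKM in proximal libraries 1 to 3. All proximal values were above all distal values, and proximal library 1 was the lowest of its region. The means were 66.1 ± 12.4 and 32.7 ± 1.72 FPKM in proximal and distal cells (SD, n = 3), with a log2 change of 0.98 ± 0.15 (SE, adjusted p = 0.00857 by limma). The call held on leaving out each library in turn, with limma adjusted p from 0.00204 to 0.0492. Col4a1 lies on chromosome 8, from 11198423 to 11312826 on the minus strand (GRCm38).

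Col4a2, on the plus strand of chromosome 8 from 11312805 to 11449287, encodes the α2 chain that joins α1 chains in the common helix. Its values were 10.9, 13.0 and 11.9 FPKM across distal libraries, against 17.6, 24.3 and 25.9 FPKM across proximal libraries. The regions did not overlap, and again proximal library 1 was the lowest of the proximal values. The log2 fold change was 0.85 ± 0.16 (SE, adjusted p = 0.0179 by limma). The call was lost on leaving out distal library 2 or 3 or proximal library 2 or 3, with limma adjusted p of 0.0589, 0.0644, 0.0933 and 0.067.

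Within a library, Col4a1 exceeded Col4a2 by a similar factor in both regions. The ratio of their FPKM was 2.89, 2.44 and 2.91 in the distal and 2.94, 2.94 and 2.89 in the proximal libraries. These ranges overlap (exact permutation test, two-sided, p = 0.3, adjusted p = 0.375 over 5 ratios). With 3 libraries against 3, the smallest p of this test is 0.1.

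Col4a3 and Col4a4 encode the α3 and α4 chains, which assemble with α5 in the basement membranes of the kidney glomerulus and some other epithelia. Col4a3 lay at 4.58, 4.39 and 5.00 FPKM across distal libraries, against 5.72, 8.38 and 7.16 FPKM across proximal libraries. The regions did not overlap, but the difference did not pass the test (log2 fold change 0.50 ± 0.15, SE, adjusted p = 0.0859 by limma). It passed without proximal library 1 (limma adjusted p = 0.0317) and without both libraries numbered 1 (limma adjusted p = 0.0219).

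Col4a4 was among the least abundant of the set, at 1.51, 1.86 and 1.61 FPKM across distal libraries, against 1.57, 1.88 and 1.38 FPKM across proximal libraries. The regions overlapped, with the highest and the lowest value both in proximal libraries. Its log2 fold change was -0.03 ± 0.14 (SE, adjusted p = 0.926 by limma). The ratio of Col4a3 to Col4a4 was 3.03, 2.36 and 3.10 in the distal and 3.63, 4.46 and 5.20 in the proximal libraries, without overlap (exact permutation test, two-sided, p = 0.1, the smallest possible, adjusted p = 0.167).

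Col4a5 and Col4a6 encode the α5 and α6 chains, which form a helix found in the basement membranes of many epithelia and around smooth muscle. Col4a5 lay at 4.51, 5.97 and 5.28 FPKM across distal libraries, against 5.10, 4.59 and 4.55 FPKM across proximal libraries. The regions overlapped and the log2 fold change was -0.12 ± 0.13 (SE, adjusted p = 0.643 by limma). Unlike the other members, Col4a5 had its FPKM divided over 2 transcripts in distal library 1, at 2.92 and 1.59 FPKM, and in proximal library 2, at 3.51 and 1.08 FPKM, and the sum was used.

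Col4a6 lay at 4.25, 3.94 and 4.30 FPKM across distal libraries, against 7.60, 6.79 and 6.12 FPKM across proximal libraries. Every proximal value was above every distal value, and proximal library 1 held the highest value, where Col4a1 was lowest for its region. The means were 6.84 ± 0.741 and 4.16 ± 0.194 FPKM (SD, n = 3), a log2 change of 0.60 ± 0.12 (SE, adjusted p = 0.0283 by limma). The call was lost without the filter on low genes (limma adjusted p = 0.0575) and on leaving out distal library 2 or 3 or proximal library 2 or 3 (limma adjusted p from 0.0555 to 0.127).

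Col4a5 and Col4a6, whose upstream sequences are printed above, stood in a different order in the 2 regions. The ratio of Col4a6 to Col4a5 was 0.944, 0.66 and 0.814 in the distal and 1.49, 1.48 and 1.34 in the proximal libraries. It lay below 1 in every distal and above 1 in every proximal library (exact permutation test, two-sided, p = 0.1, the smallest possible, adjusted p = 0.167). Summed over the 6 genes, collagen IV came to 57.3, 61.0 and 62.8 FPKM across distal libraries, against 89.6, 117 and 120 FPKM across proximal libraries. Col4a1 and Col4a2 made up 74.1, 73.5 and 74.2% of this sum in the distal and 77.7, 81.6 and 84.0% in the proximal libraries (exact permutation test, two-sided, p = 0.1, adjusted p = 0.167).

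**Figure D2:**
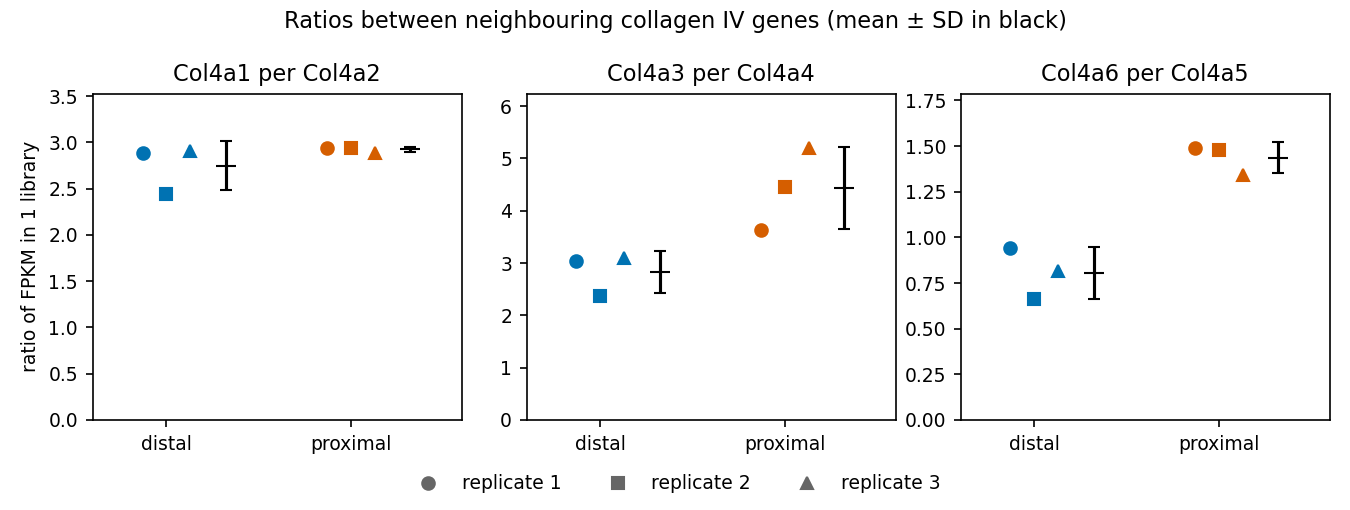
Ratio of FPKM within 1 library (vertical axes, from 0) for each pair of neighbouring collagen IV genes, in distal (blue) and proximal (orange) libraries, with the mean ± SD in black. Col4a1 per Col4a2 overlaps between regions, whereas Col4a3 per Col4a4 and Col4a6 per Col4a5 are higher in each proximal library than in any distal library.

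Nid1, on chromosome 13 from 13437551 to 13512269 (GRCm38), encodes nidogen-1, which binds both laminin and collagen IV. Its level was 4.68, 4.99 and 5.16 FPKM across distal libraries, against 5.71, 6.80 and 5.82 FPKM across proximal libraries. The regions did not overlap, yet the difference was small and did not pass the test (log2 fold change 0.26 ± 0.12, SE, adjusted p = 0.242 by limma). It passed under none of the 16 alternative settings and left-out libraries (limma adjusted p from 0.167 to 0.564).

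Nid2, the gene of nidogen-2, a second linker of the same kind, lay at 0.362, 0 and 0.448 FPKM across distal libraries, against 1.93, 2.56 and 1.94 FPKM across proximal libraries. The 0 of distal library 2 carries a deposited upper bound of 0.0144 FPKM. Nid2 was low in all distal libraries, with implied fragments of 38, 0 and 52 against 230, 275 and 255 in the proximal libraries. The log2 fold change was 1.32 ± 0.19 (SE, adjusted p = 0.00652 by limma), on a scale that understates the change of low genes. With a pseudocount of 0.5 it was 1.82 ± 0.28, and with 0.1 it was 2.92 ± 0.65 (SE, adjusted p = 0.0101 and 0.0371 by limma). Nid2 passed the filter of a mean of 1 FPKM, with a mean of 1.21 FPKM, only through the proximal libraries, and without that filter it was also called (limma adjusted p = 0.0199). It fell below the filter when proximal library 2 was left out. Its end overlaps the span of Rtraf on chromosome 14, and the sources used here do not say whether the reads keep strand, so fragments of the overlap cannot be assigned with certainty.

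Hspg2, on chromosome 4 from 137468769 to 137570630, encodes perlecan, a large heparan sulfate proteoglycan that binds nidogen and collagen IV. Its values were 4.85, 6.94 and 7.14 FPKM across distal libraries, against 4.42, 8.73 and 10.1 FPKM across proximal libraries. The lowest values of both regions stood in the libraries numbered 1, and the regions overlapped. The log2 fold change was 0.21 ± 0.27 (SE, adjusted p = 0.687 by limma), with the widest error of the 10 genes. On leaving out each library it ran from 0.01 without proximal library 3 and 0.06 without distal library 1 to 0.52 without proximal library 1, and it never passed. Without both libraries numbered 1 it was 0.37 ± 0.11 (SE, adjusted p = 0.0652 by limma).

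Agrn, on chromosome 4 from 156165290 to 156197488, encodes agrin, a heparan sulfate proteoglycan that binds laminin and dystroglycan and is best known from the neuromuscular junction. It lay at 28.7, 35.7 and 31.4 FPKM across distal libraries, against 40.8, 46.2 and 41.9 FPKM across proximal libraries. The regions did not overlap, but the log2 fold change of 0.42 ± 0.11 did not pass the test (SE, adjusted p = 0.0669 by limma). It passed without both libraries numbered 1 (limma adjusted p = 0.0458). Agrin transcripts exceeded those of perlecan in every library, by 5.92, 5.15 and 4.39 times in the distal and 9.22, 5.29 and 4.16 times in the proximal libraries, with overlapping ranges (exact permutation test, two-sided, p = 0.8, adjusted p = 0.8).

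**Figure D3:**
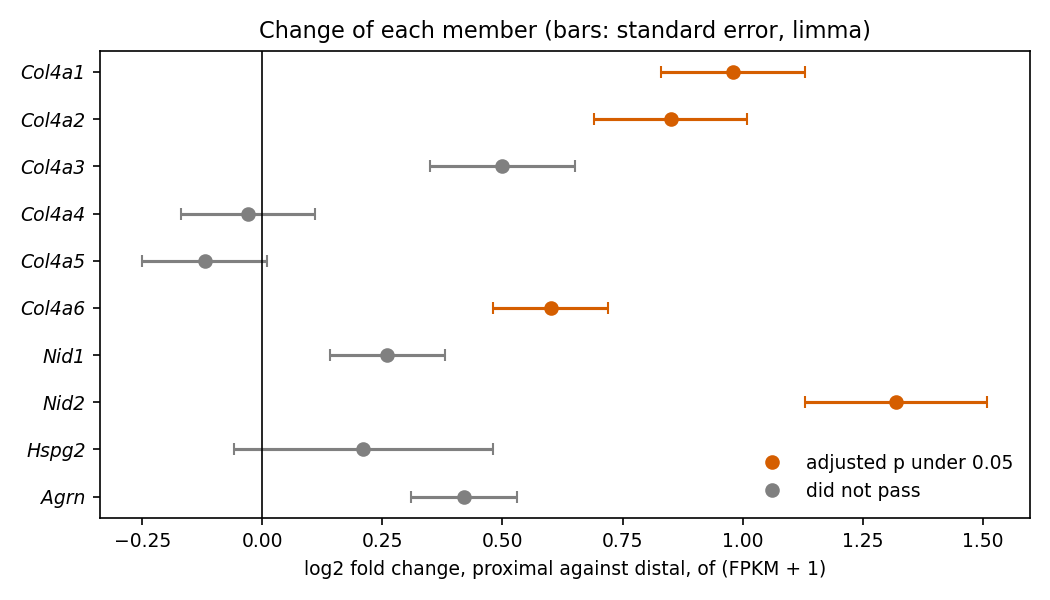
Log2 fold change of FPKM + 1, proximal against distal (horizontal axis), with its standard error from limma, for the 10 genes. Orange points (Col4a1, Col4a2, Col4a6 and Nid2) passed an adjusted p of 0.05, and grey points did not.

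FPKM is scaled to transcript length, so the levels of the members can be ordered. In distal cells Col4a1 (32.7 ± 1.72 FPKM) and Agrn (31.9 ± 3.53 FPKM) did not differ beyond their spread, and Col4a2 followed at 12.0 ± 1.06 FPKM (SD, n = 3). Hspg2, Col4a5, Nid1, Col4a3 and Col4a6 then lay between 6.31 and 4.16 FPKM in the mean, with every Col4a3 value above every Col4a6 value and the other neighbours within each other's spread, ahead of Col4a4 at 1.66 ± 0.178 and Nid2 at 0.270 ± 0.238 FPKM. In proximal cells Col4a1 (66.1 ± 12.4 FPKM) stood above Agrn (42.9 ± 2.87 FPKM) in each library, and Col4a2 followed at 22.6 ± 4.37 FPKM. Hspg2, Col4a3, Col4a6, Nid1 and Col4a5 came next, from 7.74 to 4.75 FPKM in the mean, with every Nid1 value above every Col4a5 value and the other neighbours within each other's spread. Nid2 (2.14 ± 0.356 FPKM) and Col4a4 (1.61 ± 0.251 FPKM) were the lowest pair.

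Collagen IV, nidogens and perlecan are also made by cells of vessels, stroma and nerves, so marker lists of these cells were read in the same libraries. All 24 endothelial markers were higher in proximal cells in the mean. Of the 14 tested, 6 passed the test and 0 were lower, against 4.52% higher and 2.50% lower among all tested genes. The median log2 fold change of the 14 was 0.98. The summed level of the list was 37.4, 11.6 and 16.6 FPKM across distal libraries, against 71.8, 62.1 and 46.5 FPKM across proximal libraries. No endothelial marker was at 0 in all libraries. The 6 that passed were Cdh5, Kdr, Tie1, Emcn, Eng and Plvap. Cdh5, Kdr and Tie1 had distal means under 1 FPKM and passed the filter only through the proximal libraries. The same held for Egfl7, Cldn5 and Sox18, which were tested without a call (distal means 0.899, 0.642 and 0.713 FPKM). The filter therefore favored markers high in proximal libraries, which limits how the count and the median of the tested markers can be read. Kdr, a receptor of vascular growth factor, lay at 0.922, 0.193 and 0.375 FPKM across distal libraries, against 2.07, 1.99 and 1.29 FPKM across proximal libraries. The cadherin Cdh5 had a mean of 0.492 FPKM in distal and 1.73 FPKM in proximal libraries. Pecam1, which marks endothelium, had means of 1.68 and 6.09 FPKM and did not pass (limma adjusted p = 0.0501). Without the filter on low genes 0 of the list passed (limma), and on leaving out each library 0 to 9 passed, with 0 without distal library 2, distal library 3 or proximal library 2.

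Within a region, some members had the order of the endothelial sum and others did not. Distal library 1 had 3.23 times the endothelial sum of distal library 2 and 0.992 times its Col4a1. Proximal library 1 had 1.54 times the endothelial sum of proximal library 3 and 0.694 times its Col4a1, 0.682 times its Col4a2 and 0.439 times its Hspg2. The same library had 1.24 times the Col4a6, 1.14 times the Col4a4 and 1.12 times the Col4a5 of proximal library 3, and across the proximal libraries Col4a6 and Col4a5 stood in the same order as the endothelial sum. Between the regions, proximal library 3, with the lowest proximal endothelial sum, was set against distal library 1, with the highest distal sum. This pair was chosen after the sums were seen. Proximal library 3 had 1.24 times the endothelial sum of distal library 1. Single markers varied, with Emcn at 6.32 against 2.89 FPKM and Ecscr at 2.58 against 4 FPKM. Col4a1 and Col4a2 of proximal library 3 were each 2.37 times as high, its Col4a6 1.44 times, its Nid2 5.37 times and its Col4a5 1.01 times. Whether the members follow the endothelial content was not tested. In each region the library with the highest endothelial sum was the lowest for Col4a1, Col4a2, Nid1, Hspg2 and Agrn. Both Col4a1 and the endothelial sum were higher in every proximal than in any distal library. Without both libraries numbered 1, Col4a1 had a log2 change of 1.12 ± 0.09 (SE, adjusted p = 0.00165 by limma). In that fit 9 endothelial markers were higher.

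Stromal lists were less uniform. Fibroblast markers summed to 818, 825 and 785 FPKM across distal libraries, against 777, 761 and 709 FPKM across proximal libraries, nearly all of it Dcn, the matrix proteoglycan decorin. Without Dcn, a calculation chosen after seeing the data, they summed to 36.6, 35.2 and 47.6 FPKM across distal libraries, against 66.9, 75.5 and 68.2 FPKM across proximal libraries. Of the 11 tested, 4 were higher (Postn, Col3a1, Col1a1 and Col1a2) and 0 were lower, against 4.52% and 2.50% of all tested genes. The median log2 fold change of the 11 was 0.56. Col3a1, a fibrillar collagen, had a distal mean of 7.83 FPKM and a proximal mean of 16.3 FPKM, and Col1a1 means of 7.17 and 11.8 FPKM. Other fibroblast markers, chosen after their values were seen, were lower in every proximal than in any distal library without a call. That order held for 13.0% of all tested genes. Dcn had means of 769 FPKM distally and 679 FPKM proximally (limma adjusted p = 0.365), Mfap5 of 1.78 and 0.721 FPKM (limma adjusted p = 0.0982), and Pi16, which was below the filter, of 0.774 and 0.402 FPKM. Pdgfra, the fibroblast receptor, lay at 1.13 to 1.77 FPKM in the distal and 1.17 to 1.75 FPKM in the proximal libraries, with overlap. None of the 20 fibroblast markers was at 0 in all libraries.

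Pericyte and smooth muscle markers summed to 79.5, 73.4 and 77.7 FPKM across distal libraries, against 64.2, 72.7 and 111 FPKM across proximal libraries, with 2 of 11 higher (Pdgfrb and Rgs5) and 0 lower. For this list and those after it, the shares of all tested genes were 4.52% higher and 2.50% lower. Pdgfrb, the pericyte receptor, rose from a mean of 0.615 to 1.93 FPKM, and Rgs5 from 1.04 to 2.52 FPKM. Cspg4, also a pericyte marker, overlapped between regions (means of 1.25 and 1.49 FPKM, limma adjusted p = 0.628). Of the 15 markers 13 had a higher proximal mean, and Higd1b and Actg2 a lower one. Proximal library 3 held 69.2 FPKM of Tagln. A sum without Tagln was chosen after seeing the data. It gave 34.6, 33.2 and 38.5 FPKM distally and 37.3, 42.1 and 42.2 FPKM proximally, with overlap. Nerve and glia markers summed to 17.7, 21.4 and 17.7 FPKM across distal libraries, against 32.1, 44.0 and 30.5 FPKM across proximal libraries, with 5 of 7 higher and 0 lower. Ncam1, the most abundant of them, was lower in every proximal than in any distal library without a call (means 13.2 and 10.1 FPKM distally and proximally, limma adjusted p = 0.118). Without Ncam1, a choice made after seeing the data, the sums were 4.63, 7.42 and 5.31 FPKM distally and 20.9, 33.7 and 21.8 FPKM proximally. On leaving out each library in turn the counts of higher genes were 2 to 5 for fibroblast, 0 to 2 for pericyte and smooth muscle, and 4 to 5 for nerve and glia markers. Among the 5 were Cdh19, Scn7a and Kcna1, which like Pdgfrb had distal means under 1 FPKM and passed the filter only through the proximal libraries. The glial factor Sox10 lay at 0.223, 0.402 and 0.234 FPKM across distal libraries, against 0.55, 1.99 and 1.09 FPKM across proximal libraries. Leukocyte markers had 0 of 3 tested called by limma in either direction, and Ptprc was at most 0.0436 FPKM in any library. Leukocyte markers summed to 14.8 to 15.8 FPKM in the distal and 12.3 to 15.8 FPKM in the proximal libraries. Of the epithelial lists, 2 of 11 basal markers were higher and 0 lower, and 3 of 12 luminal markers were higher (Krt19, Tspan8 and Cldn3) and 2 lower. Basal markers summed to 7587 to 9335 FPKM in the distal and 8631 to 8936 FPKM in the proximal libraries, and luminal markers to 2492 to 3280 and 3454 to 3696 FPKM. Without Krt15, the most abundant basal marker, the basal sum was 6893, 5577 and 5491 FPKM distally and 5100, 5122 and 5305 FPKM proximally. Every proximal library was then below every distal one, in a calculation also chosen after seeing the data. Most of that sum was Krt14 and Krt17, which did not pass (limma adjusted p = 0.365 and 0.171). The 2 basal markers called higher were Krt5 and Krt15. Without both libraries numbered 1, 4 basal markers were higher and 4 lower, and 6 luminal markers were higher and 2 lower. No pericyte, smooth muscle, nerve or glia marker was at 0 in all libraries. Whether endothelial, stromal, glial or luminal cells contribute to the higher Col4a1, Col4a2, Col4a6 and Nid2 was not tested.

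**Figure D4:**
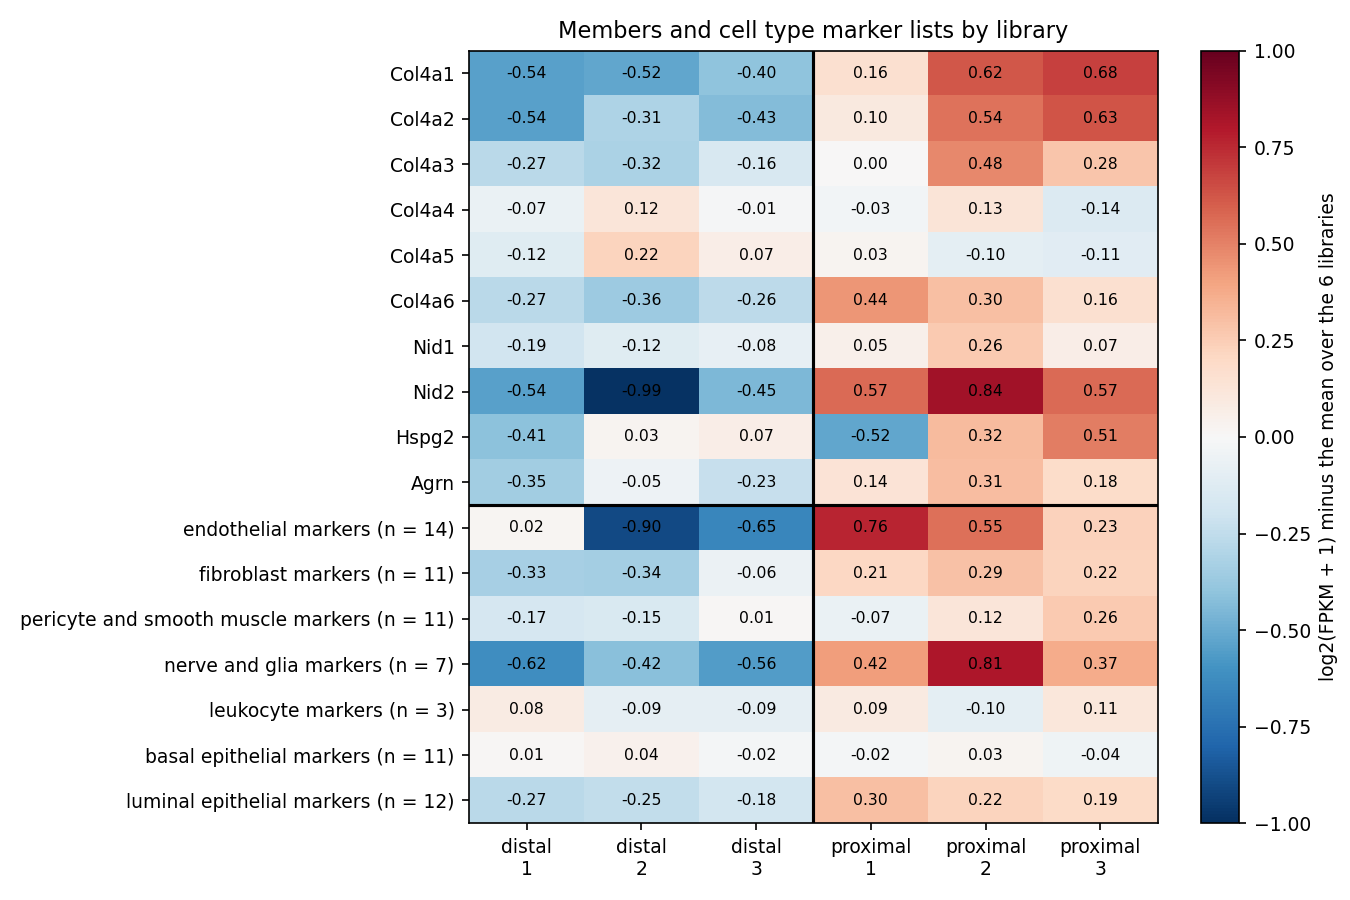
Deviation of log2(FPKM + 1) from its mean over the 6 libraries (color, red above and blue below) for the 10 genes and, under the line, averaged over the tested genes of each cell type list (n in brackets). Endothelial markers stand at 0.02 in distal library 1 and 0.76 in proximal library 1, where Col4a1 stands at -0.54 and 0.16. Both stand higher in every proximal than in any distal library.

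The other genes of the basement membrane were read from lists of named genes, beside shares of 4.52% higher and 2.50% lower among all tested genes. Of the 11 laminin chains, 5 were higher and 0 were lower, the higher ones including Lama3, Lamb1, Lamb3 and Lamc1, with a median log2 fold change of 0.45. On leaving out each library in turn, 1 to 6 laminin chains (0 to 1 lower) and 2 to 4 of the other components below were higher. Lamc1, the γ chain that binds nidogen, went from 31.6 ± 4.10 to 52.9 ± 10.2 FPKM (SD, n = 3). Of 12 other basement membrane components tested, 5 were higher and 0 were lower. They were the calcium-binding matrix protein Smoc2, the laminin-binding netrin Ntn4, the fibulins Fbln1 and Fbln2, and Col17a1, the hemidesmosomal collagen. Their log2 fold changes were 0.90, 1.17, 0.64, 1.06 and 0.66.

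Genes that modify collagen IV in the endoplasmic reticulum or crosslink it are a separate list. Of the 14 tested, 1 was higher and 0 were lower, against 4.52% and 2.50% of all tested genes. The median log2 fold change of this list was -0.08. The 1 higher gene was P3h2, a prolyl 3-hydroxylase that acts on collagen IV, at 2.28 ± 0.190 FPKM distally and 4.29 ± 0.712 FPKM proximally (SD, n = 3). Its call was lost without the filter, with the filter at a mean of 5 FPKM, and without distal library 2 or 3 or proximal library 2 or 3. Without both libraries numbered 1, 3 genes of this list were lower. Mia3, which helps load bulky cargo such as collagen into transport vesicles, was listed at 0 in all libraries. That 0 does not show a lack of expression, since not all listed transcripts could be matched to a gene. Among cell surface heparan sulfate proteoglycans 1 of 8 was higher, Sdc3, a syndecan (log2 fold change 1.28), and 0 were lower, and without proximal library 2 none was higher. Among receptors of collagen IV, nidogen, perlecan and agrin 1 of 10 was higher, the integrin subunit Itgav (log2 fold change 0.74), and 0 were lower, and without both libraries numbered 1 there were 3 higher. Beside 4.52% higher among all tested genes, 1 call in a list this short is not read as a result about the list. Of 17 proteases and inhibitors, 3 were higher and 0 were lower: Adamts1 and Prss12, proteases of which the latter cleaves agrin, and the inhibitor Timp4. Prss12 had a distal mean of 0.483 FPKM and a proximal mean of 1.68 FPKM, and Timp4 of 0.332 and 2.29 FPKM, so both passed the filter only through the proximal libraries. With the filter at a mean of 5 FPKM 1 gene of this list was higher, and on leaving out each library 0 to 2 were, with 0 without distal library 2 and 1 without proximal library 1, 2 or 3.

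**Figure D5:**
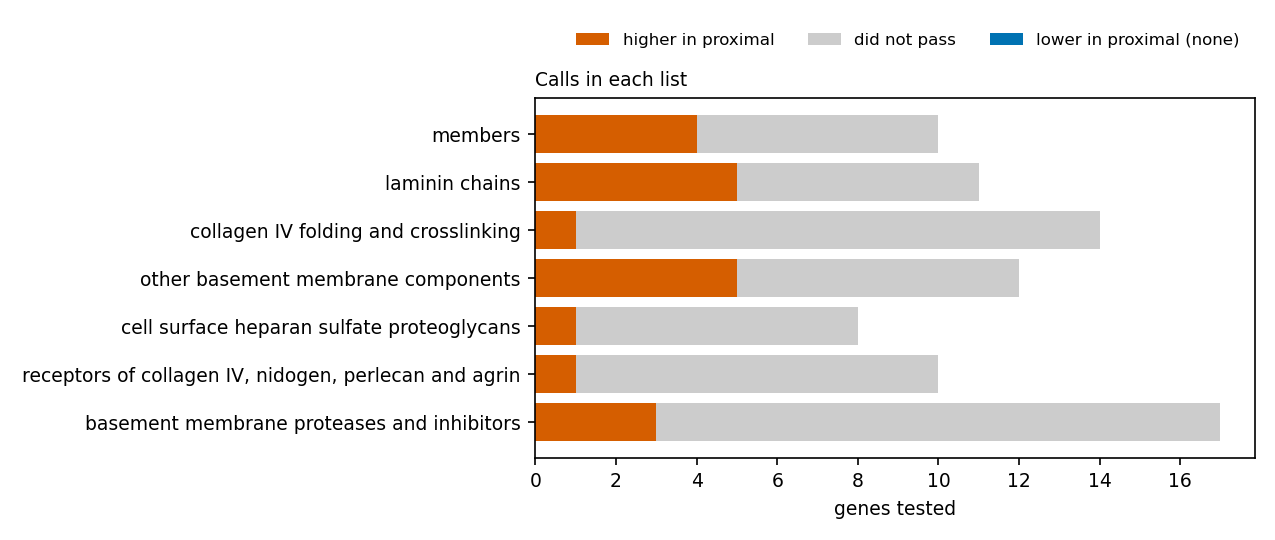
Number of tested genes of each list (horizontal axis, from 0) that were higher in proximal cells (orange) or did not pass the test (grey), with none lower. The 10 members have 4 higher, the laminin chains 5 of 11 and the other components 5 of 12, whereas folding and crosslinking genes have 1 of 14. Among all tested genes 4.52% were higher and 2.50% lower.

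Genes with the pattern most like 3 of the members across the 6 libraries were found by the root mean square difference of log2(FPKM + 1) after subtracting each gene's mean. For Col4a1 they were Thsd7a (0.063), Lrrc8b (0.0661), Trp53inp2 (0.0712), Mctp2 (0.0927) and Pgd (0.0953), against a median of 0.557 over all tested genes. For Nid1 they were Utp20, Snrk, Tm9sf4, Nup155 and Vkorc1l1, at 0.0252 to 0.0414 against a median of 0.247. For Hspg2 they were Slc25a13, Sept9, Lrch1, Pdlim4 and Spata6, at 0.0578 to 0.0816 against a median of 0.429.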

How the data were processed

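Total RNA from sorted cells was converted to cDNA with random and oligo(dT) primers for Illumina sequencing, per the labels' protocols. The submitters' processing notes name bcl2fastq 1.8.3, TopHat, Cufflinks and the build mm10. Which annotation was used is not stated in those notes. The deposited files list FPKM for 63241 transcripts in each library, per the file headers, and a coverage signal that was not used. FPKM values were used as the authors deposited them, so library depth was only derived from the interval widths, and they are not counts.

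Transcripts were matched to GENCODE M21 (GRCm38) by span and length, which gave 53323 matched transcripts and 25273 genes, each a sum of FPKM. In a test on 2000 reference transcripts 88.7% were assigned, and 99.7% of those were right. The test was limma 3.58.1 (R 4.3.3) on log2(FPKM + 1) for genes averaging 1 FPKM or more, with a variance trend, two-sided, with Benjamini-Hochberg adjustment. The procedure was tested on simulated data. Named genes are the 10 members, up to 4 called genes per list with the smallest p, defining markers, laminin chains and the 5 nearest genes of Col4a1, Nid1 and Hspg2. Members and lists were chosen with earlier results of these data known. Genes of a list named beyond these 4, and Mia3, were chosen after their values were seen. Alternatives changed the pseudocount, filter, scaling, variance trend, matching, libraries and replicate block. The results of some genes of the lists are not reported here.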

Additional observations from a re-analysis of the deposited data

How the results depend on the processing

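No member changed the direction of a called difference, and 0 members were lower under any setting. Col4a1 was called in all 17 fits, and Nid2 in all 15 in which it was tested. The number of members higher was 4, and 1 to 5 on leaving out each library. Counts over all genes moved too. At 464 higher and 256 lower genes, the filter at a mean of 5 FPKM gave 273 and 168, leaving out both libraries numbered 1 gave 908 and 1385, and leaving out each library gave 202 to 533 and 46 to 622. Without the filter, 137 genes were lower. A replicate block on the replicate number gave 880 higher and 732 lower genes, 5 members higher, and an adjusted p of 0.0158 for Agrn (limma). The same numbers correlated at 0.38, 0.04 and 0.29 in their deviations. Proximal libraries 1 and 3 correlated best with the distal library of their own number, and proximal library 2 with distal library 3 (0.16). The main fit did not pair the libraries, and whether libraries of the same number share a batch was not tested. The cause of the moves in the counts was not tested. Nid2, at 0 to 52 implied fragments in distal libraries, is the member most limited by depth.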
